A study of Mus musculus with 10 samples.

Results

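The genes described here are Il3ra, Chil3, Wfdc21, Cxcr2, S100a8 and Vsig4, 6 genes of the innate immune system measured in heart tissue of mice. They were chosen on measured values, since all 6 stand in the study's list of 118 mRNA entries with large differences between these same young and aged hearts, 45 of them higher in aged hearts. They are 6 of the 719 genes that could be named from the study's tables. Each was represented by 1 of the 22359 mRNA probes of the array. Their differences between the age groups are therefore given as a description, with no test.

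Hearts came from wild-type male C57BL/6 mice aged 3 months (3m, n = 5) and 20 months (20m, n = 5), with 1 mouse per one-colour array. Neither group had an experimental treatment. By the methods, the mice had echocardiography under isoflurane anesthesia in the days before they were killed by cervical dislocation. The methods name 1 supplier for the young and another for the aged mice, and the effects of age and of supplier cannot be told apart here. All mice were housed singly, and the aged mice were kept at the study's facility until sampling. By the scan times in the file headers, replicates 1 and 2 of the 3m group were read in 1 scan and the other 3 young and all 5 aged hearts in another. RNA was extracted from pulverized heart tissue, which holds cardiomyocytes, vessels, fibroblasts and any blood left in the organ. No cardiomyocyte or fibroblast marker of the lists used here had a named probe, so the labelled tissue was not checked against its own markers.

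Neutrophils are short-lived white cells made in the bone marrow. They are called into tissue by chemokines that bind CXCR2 and carry large amounts of the calcium-binding alarmin S100A8. Macrophages live in the healthy heart for long periods, where they clear debris and assist conduction, and some tissue-resident populations bear VSIG4, a receptor for complement fragments. The other genes are less specific. The interleukin-3 receptor subunit is found on several myeloid cells, on mast cells and on basophils, and Chil3 is expressed by macrophages, monocytes and neutrophils.

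All 6 genes were higher in aged than in young hearts, by 2.25 to 3.57 on the normalized log2 scale. On this scale the intensities were quantile-normalized, with a floor of 5 in linear units. In no gene did the age groups overlap. In the limma fit over 16720 detected mRNA probes, the limits of an adjusted p-value under 0.05 and a log2 difference of at least 1 called 4.00% of the probes higher in aged hearts, and 8.28% had every aged array above every young array. The 6 genes were chosen from the top of such a ranking, so their place in either share says nothing further about them. In these bulk samples, more cells of a type and more RNA per cell cannot be told apart.

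Among the 669 mRNA probes called higher, Wfdc21 ranked 4 by the size of its log2 difference, Chil3 6, Il3ra 8, S100a8 20, Cxcr2 21 and Vsig4 45. The median of all 669 was 1.27. The order among the 6 is not firm. With values under the detection limit raised to it, Il3ra (3.28) came before Wfdc21 (3.09) and Chil3 (2.97), and S100a8 (2.03) came after Vsig4 (2.25), while Cxcr2 (2.13) came first with normexp background correction. The study's list of higher mRNAs closed at Vsig4. The gene just before it was Trim14 (rank 44) with a log2 difference of 2.26, Vsig4 had 2.25, and the first probe outside the list, which is unnamed here, had 2.21.

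**Figure D1:**
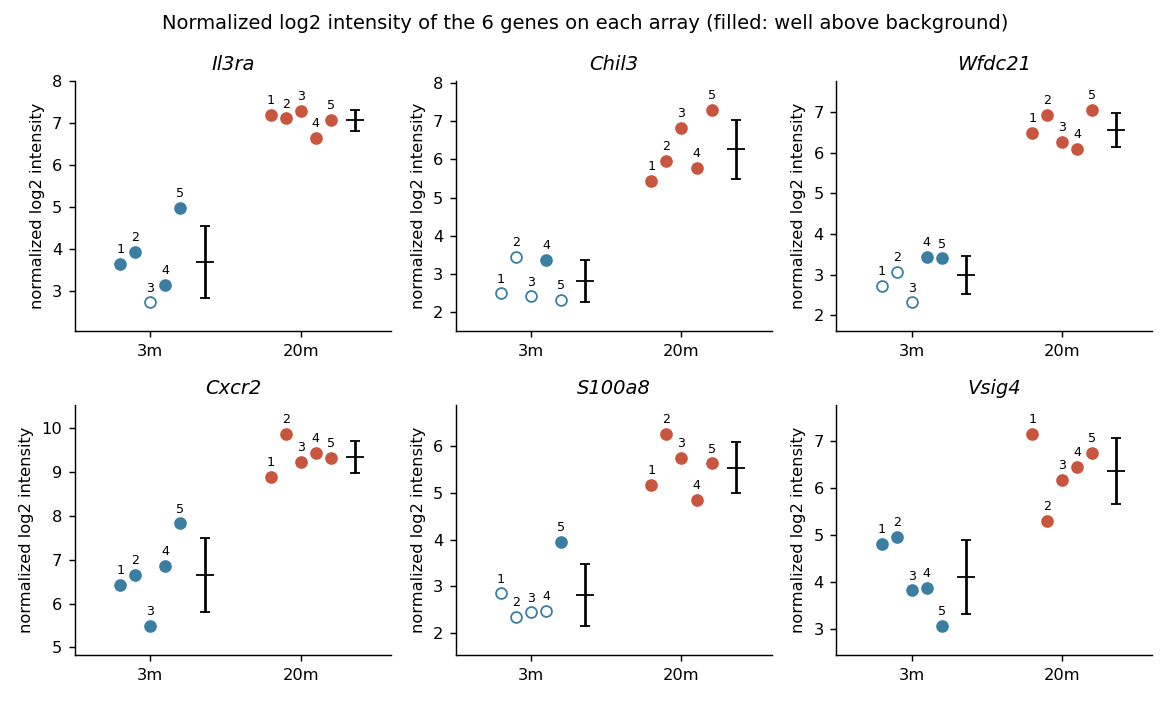
Normalized log2 intensity (vertical axis) of Il3ra, Chil3, Wfdc21, Cxcr2, S100a8 and Vsig4 on each of the 5 arrays from 3m and the 5 from 20m hearts, numbered by replicate. Filled points were well above background, open points were not, and bars show the mean ± SD. Every 20m point lies above every 3m point of the same gene, and the gap is smallest for Vsig4, 0.34 between the lowest aged and the highest young heart.

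Cxcr2 (ENSMUSG00000026180, chr1:74153991-74161246, plus strand) encodes the receptor through which neutrophils follow CXC chemokines out of the marrow and into tissue. Its probe holds the variant polyadenylation signal attaaa, which begins 15 bases from the probe's end and usually stands near the 3′ end of a transcript. The last 30 bases of the probe are shown with that signal in capitals.
Cxcr2 probe: ttgtaaagtgtgactATTAAAtgtcgtttt
The background-subtracted intensity was 77.8, 87.1, 61.0, 165 and 268 in young hearts 1 to 5 and 394, 816, 404, 573 and 554 in aged hearts 1 to 5. Every array was well above background. On the log2 scale the young hearts spread more widely than the aged ones, with replicate 5 the highest and replicate 3 the lowest. In intensity the lowest aged heart was 1.47 times the highest young heart, and after normalization the gap between them was 1.05 on the log2 scale. The log2 level was 6.65 ± 0.84 (SD, n = 5) at 3m and 9.34 ± 0.36 (SD, n = 5) at 20m, a difference of 2.69 (SE 0.35) or 6.48-fold.

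Il3ra (ENSMUSG00000068758, chr14:14346275-14355490, plus strand) encodes the alpha subunit of the receptor for interleukin-3, a growth factor of myeloid cells and basophils. Its probe has a GC content of 68.3%, at the top of the range of the 45 listed higher probes (30 to 68.3%, median 43.3%). The probe maps without a gap to chr14:14346348-14346407 (GRCm38.p6), from base 74 of the listed transcript's span, and thus lies at the 5′ end. Measured from the start that the RefSeq promoter table uses, it lies 147 to 88 bases upstream. Its last 30 bases are shown with a GC-rich run in capitals.
Il3ra probe: catgggcgcggtcGGGGCGGggcggggcct
Intensities in young hearts 1 to 5 were 9.80, 11.2, 8.84, 12.3 and 40.0, and those in aged hearts 130, 134, 115, 81.0 and 115. All aged arrays and 4 of the 5 young arrays were well above background, the exception being replicate 3. Young heart 5 stood above the other young hearts and the aged hearts lay close together. The log2 level was 3.69 ± 0.86 (SD, n = 5) at 3m and 7.07 ± 0.25 (SD, n = 5) at 20m, a difference of 3.37 (SE 0.34) or 10.4-fold.

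Vsig4 (ENSMUSG00000044206, chrX:96247203-96293438, minus strand) encodes a complement receptor of the immunoglobulin superfamily that captures opsonized particles on resident macrophages. The first 30 bases of its probe are given to identify what was measured, with nothing marked.
Vsig4 probe: ctatggagtgagcagggtgtttgccaggaa
Intensities were 23.4, 24.7, 19.2, 20.5 and 11.1 in young hearts 1 to 5 and 126, 38.6, 55.0, 70.7 and 89.7 in aged hearts 1 to 5, and all 10 arrays were well above background. Here young heart 5 was the lowest of its group and aged heart 2 the lowest of its own, opposite to their place for Cxcr2. The log2 level was 4.11 ± 0.78 (SD, n = 5) at 3m and 6.36 ± 0.70 (SD, n = 5) at 20m, a difference of 2.25 (SE 0.39) or 4.76-fold. The young hearts differed by scan, with a mean of 4.88 for the 2 hearts of the first scan and 3.596 for the 3 of the second. Within the second scan alone, which held both ages, the difference was 2.76.

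S100a8 (ENSMUSG00000056054, chr3:90668978-90670035, plus strand) encodes a subunit of calprotectin, which neutrophils and monocytes store in their cytoplasm and release in inflammation. The first 12 bases of its probe equal the end of a stretch in the promoter window of the gene, after which the probe and the genome part. The genome goes on with a splice donor sequence while the probe does not, so the probe crosses the junction behind the first exon and lies near the 5′ end. Shared bases are in capitals in the probe, and the donor is in capitals in the genome.
S100a8 probe: TCAAGACATCGTttgaaaggaaatctttcg
S100a8 genome: tcaagacatcgtGTAAGT
Intensities in young hearts 1 to 5 were 5.47, 3.102, 7.22, 7.71 and 19.9, of which only the last was well above background. In aged hearts 1 to 5 they were 33.1, 73.6, 42.3, 23.1 and 40.7, all well above background. The lowest aged heart had 1.16 times the intensity of young heart 5, and after normalization the gap between them was 0.90 on the log2 scale. The log2 level was 2.82 ± 0.66 (SD, n = 5) at 3m and 5.53 ± 0.54 (SD, n = 5) at 20m, a difference of 2.72 (SE 0.33), or 2.03 with values not well above background raised to the lowest value so marked on the same array (the detection limit). S100a9, the partner of S100a8, had no named probe and was not analysed here.

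Chil3 (ENSMUSG00000040809, chr3:106147554-106167564, minus strand) encodes the secreted chitinase-like protein Ym1, known from alternatively activated macrophages and from cells of the neutrophil lineage. The first 30 bases of its probe are shown with nothing marked.
Chil3 probe: acacagtgcaagttgcaagggcccttattg
Young hearts 1 to 5 had intensities of 4.18, 7.63, 7.05, 14.1 and 6.35, and only replicate 4 was well above background. Aged hearts 1 to 5 had 39.4, 60.3, 84.7, 43.9 and 134, and all 5 were. The aged hearts spread more than the young ones, and aged heart 5 was the highest. The log2 level was 2.81 ± 0.55 (SD, n = 5) at 3m and 6.26 ± 0.77 (SD, n = 5) at 20m, a difference of 3.46 (SE 0.36), or 2.97 with values not well above background raised to the detection limit of their array.

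Wfdc21 (ENSMUSG00000051748, chr11:83746940-83752642, plus strand) encodes a small secreted protein with a whey acidic protein domain, a fold shared with several inhibitors of proteases. Its probe holds the polyadenylation signal aataaa, which begins 25 bases from its end. The 30 bases around that signal, in capitals, are shown.
Wfdc21 probe: gttgtttcttttAATAAAtcattaatgtaa
Intensities were 4.98, 5.66, 2.51, 14.96 and 13.8 in young hearts 1 to 5, of which replicates 4 and 5 were well above background. They were 80.5, 117, 58.7, 54.9 and 113 in aged hearts 1 to 5, all well above background. Of the 6 genes it had the widest gap between the groups, with the lowest aged heart at 3.67 times the intensity of the highest young heart. The log2 level was 2.99 ± 0.47 (SD, n = 5) at 3m and 6.57 ± 0.42 (SD, n = 5) at 20m, a difference of 3.57 (SE 0.25), or 3.09 with values at the detection limit.

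For S100a8, Chil3 and Wfdc21 most young arrays missed the mark of well above background, although 5, 5 and 4 of the 5 had the less strict mark of a positive and significant signal, and the 5 aged arrays alone sufficed to pass the detection filter of 5 arrays. Their differences therefore rest on few young values well above background, and no fold between the group means is given for them. The young values of Il3ra other than replicate 5 also lay near the detection limits of their arrays. Of the 669 higher probes, 486 were well above background on all 5 young arrays and 40 on 1 or none. With normexp background correction and an offset of 50, which damps dim probes, the differences were 0.69 for S100a8, 0.90 for Vsig4, 1.09 for Chil3, 1.24 for Wfdc21, 1.38 for Il3ra and 2.13 for Cxcr2. All 6 stayed positive, and S100a8 and Vsig4 fell under the log2 limit of 1.

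**Figure D2:**
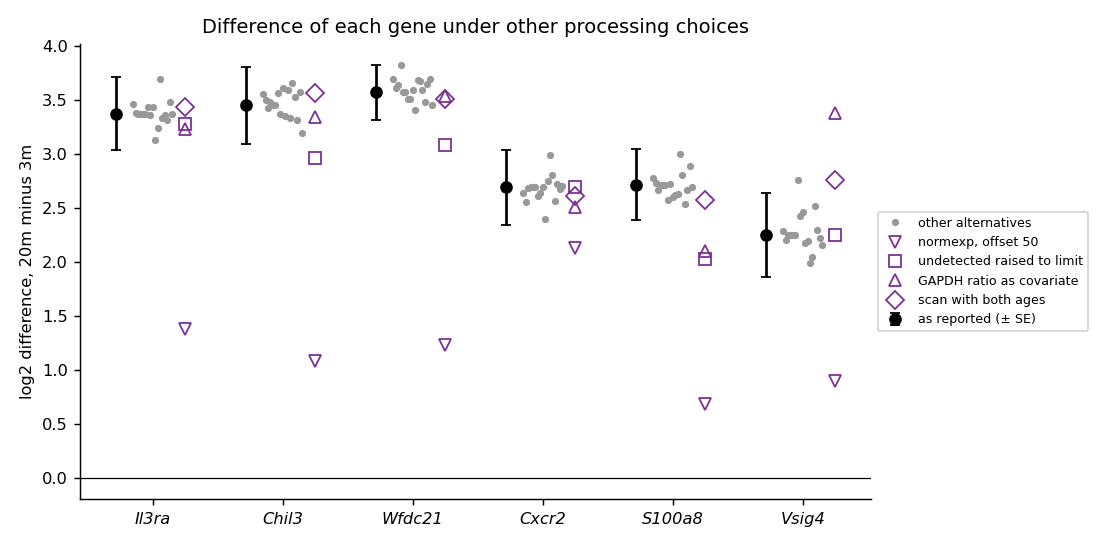
Log2 difference, 20m minus 3m (vertical axis), of the 6 genes as reported (black, ± SE) and under other processing choices (grey and open symbols). No value lies below 0, the lowest values come from normexp correction, down to 0.69 for S100a8, and Vsig4 is highest with the GAPDH ratio as a covariate, at 3.38.

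The array also has control spots for the 3′ and the 5′ end of transcripts that every cell makes. The log2 ratio of the 3′-end to the 5′-end signal of GAPDH was 1.71, 1.70, 2.14, 2.16 and 2.17 in young hearts 1 to 5 and 2.48, 2.70, 3.06, 2.33 and 2.40 in aged hearts 1 to 5. Every aged heart was above every young heart, by 0.62 on average, and so it was for PGK1, by 0.84 (two-sided exact permutation p = 0.00794 for each, which 10 arrays cannot go below, and 0.0159 when adjusted by Benjamini-Hochberg over 4 array measures). In the scan that held both ages the differences were 0.44 and 0.68 (exact p = 0.0357 for each, the smallest for 3 against 5). With the GAPDH ratio as a covariate the log2 difference was 2.11 (SE 0.50) for S100a8 and 3.23 (SE 0.57) for Il3ra. The probes of both lie near the 5′ end. For Cxcr2 and Wfdc21, whose probes hold a polyadenylation signal, the difference was 2.51 (SE 0.58) and 3.54 (SE 0.42). Chil3 had 3.34 (SE 0.60) and Vsig4 3.38 (SE 0.50). Each SE was larger than without the covariate. The ratio itself separates the age groups, so this fit divides a difference only poorly between ratio and age. The part of the control ratio in these differences was not tested beyond these values.

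**Figure D3:**
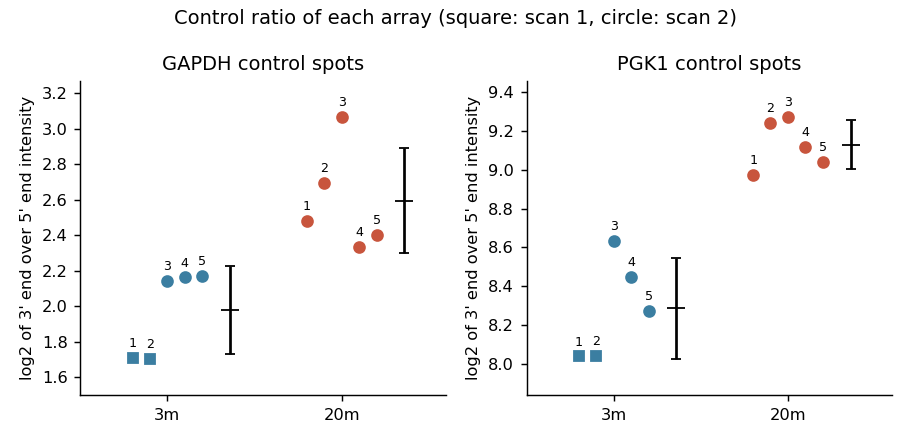
Log2 ratio of 3′-end to 5′-end intensity (vertical axis) of the GAPDH and PGK1 control spots on each array, numbered by replicate, with the mean ± SD. Squares belong to the first scan and circles to the second. Aged hearts (2.33 to 3.06 for GAPDH, 8.97 to 9.27 for PGK1) lie above young hearts (1.70 to 2.17 and 8.04 to 8.63).

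The other array measures differed less. The 75th percentile of the intensity was 129 to 209 in young and 109 to 144 in aged hearts (two-sided exact permutation p = 0.0476, adjusted 0.0635). Young hearts had 67.5% ± 4.53 (SD, n = 5) of probes well above background and aged hearts 65.9% ± 1.33 (SD, n = 5), a difference within their spread (two-sided exact permutation p = 0.492). No spot reached saturation. In the scan with both ages, the log2 differences of Il3ra, Chil3, Wfdc21, Cxcr2 and S100a8 were 3.44, 3.56, 3.51, 2.62 and 2.57, and each moved by less than the SD between replicates.

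Where each heart stood within its age group was not a criterion of the choice, although a small spread favours a gene under it. After the mean of its age group was subtracted from each array, young heart 5 was the highest of its group for Il3ra (1.30), Cxcr2 (1.18) and S100a8 (1.13), and the lowest for Vsig4 (-1.04). Among the aged hearts, replicate 2 was the highest for S100a8 (0.73) and Cxcr2 (0.53) and the lowest for Vsig4 (-1.06). Aged heart 1 showed the reverse for Cxcr2 and Vsig4, with -0.46 and 0.79. Other hearts did not follow this pattern. Young heart 3, the lowest for Cxcr2 (-1.16), was also below its group mean for Vsig4 (-0.28). Aged heart 4, the lowest for S100a8 (-0.68), was near its group mean for Vsig4 (0.09) and Cxcr2 (0.08). The hearts with the most Cxcr2 and S100a8 for their age had the least Vsig4. Young heart 5 also had the highest GAPDH ratio of its group (2.17). Aged heart 2 (2.70) was below only aged heart 3 (3.06, with -0.20 for Vsig4). For Vsig4, young hearts 1 and 2, of the first scan, deviated by 0.70 and 0.84, and young hearts 3 to 5 were negative. Adjusting for the ratio raised the age difference of Vsig4 from 2.25 to 3.38 and lowered that of S100a8 from 2.72 to 2.11. The part of ratio and scan in this pattern was not tested.

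**Figure D4:**
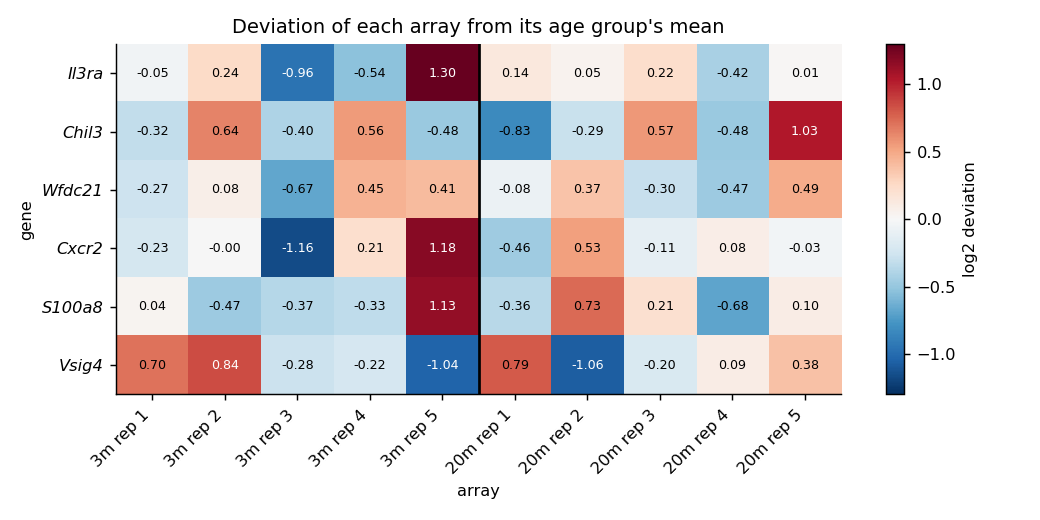
Deviation of each array from the mean of its age group, in log2 units (colour and printed value), for the 6 genes (rows) on the 10 arrays (columns, the line separates 3m from 20m). Replicate 5 of the 3m group and replicate 2 of the 20m group are red for Cxcr2 and S100a8 (1.18, 1.13, 0.53 and 0.73) and blue for Vsig4 (-1.04 and -1.06).

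Over the 10 arrays the 15 pairs of genes had Pearson correlations of 0.67 to 0.97, which include the age difference by which they were chosen. After subtraction of the group means, 8 of the 10 pairs without Vsig4 were above 0, with values from -0.08 to 0.74. The highest was between Il3ra and Cxcr2 (0.74), followed by Il3ra and S100a8 (0.72), Wfdc21 and Cxcr2 (0.70) and Cxcr2 and S100a8 (0.69). The highest pair did not hold within each age, since Il3ra and Cxcr2 had 0.88 within the young and -0.28 within the aged hearts. Of the 5 pairs with Vsig4 only that with Chil3 was above 0 (0.18), and the lowest were with S100a8 (-0.70) and Cxcr2 (-0.53). Within the aged hearts alone, Vsig4 and Cxcr2 had -0.91 and Vsig4 and S100a8 -0.74, and within the young hearts -0.42 and -0.67. These values describe 10 arrays that share scaling and scans, and values of the dim young arrays lie near the background.

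The named probes most like each gene were sought among the 734 others, which were themselves named because they differed between the age groups. Over the 10 arrays, Il3ra was most like Cd163l1, a scavenger receptor (r = 0.97), S100a8 (0.97) and Cxcr2 (0.96). Cxcr2 and S100a8 had Il3ra at the top (0.96 and 0.97), and next to it Gm5150 and Wfdc21 for Cxcr2 (both 0.96) and Cxcr2 and Cd163l1 for S100a8 (both 0.95). Wfdc21 was most like Cd163l1 (0.99), the germ cell gene Boll (0.98) and the enamel protein gene Amtn (0.98), and Chil3 most like Gm5150, Amtn and Wfdc21 (all 0.95). Vsig4 was most like the protease inhibitor genes Serpina3n (0.96) and Serpina3i (0.94) and the kallikrein gene Klk1b16 (0.92), and no other member was among its 3.

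After the group means were taken out, other members were among the 3 closest probes of Cxcr2, S100a8, Il3ra and Wfdc21. Cxcr2 had Il3ra (0.74), Gm5150 (0.71) and Wfdc21 (0.70), and S100a8 had Hba-x, an embryonic globin (0.79), Il3ra (0.72) and Cxcr2 (0.69). Il3ra had the B cell chemokine Cxcl13 (0.80), Hba-x (0.80) and Cxcr2 (0.74), and Wfdc21 had the testis cytochrome gene Cyct (0.78), Gm5483 (0.72) and Cxcr2 (0.70). The closest probes of Chil3 and Vsig4 belonged to genes lower in aged hearts, as did 674 of the 719 named genes. These were Tmem237 (0.83), Gm36028 (0.83) and the Wnt pathway agonist Rspo2 (0.79) for Chil3, and Sbf2 (0.93), the potassium channel gene Kcnj3 (0.93) and the RNA-binding protein gene Igf2bp2 (0.90) for Vsig4.

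Of 206 genes on 16 lists of cell type markers and partner genes, 9 had a named probe, and 6 of these were the genes described here. Names came from lists of probes that differ with age, so a gene without one was not analysed here, and these counts cannot be read as shares. Of 30 neutrophil genes 4 had a named probe. They were Cxcr2, S100a8, Wfdc21 and, from the same list of higher genes, Gm5483, a stefin-like inhibitor of cysteine proteases, with log2 levels of 4.58 ± 0.61 (SD, n = 5) at 3m and 7.38 ± 0.51 (SD, n = 5) at 20m. Its intensity was 18.7, 13.5, 20.6, 63.0 and 35.6 in young hearts and 94.6, 207, 93.7, 147 and 212 in aged hearts, so that its groups did not overlap either. Of 22 macrophage genes only Vsig4 had a named probe, of 15 monocyte and dendritic cell genes only Chil3, and of 11 genes of the interleukin-3 receptor family only Il3ra. The same held for the lists of S100 alarmins, CXCR2 ligands, chitinases, whey acidic protein inhibitors and complement, in which no partner had a name.

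Of the markers of other cells, Cd28 and Tek were named, both from a sheet that holds only lower genes, which fixes their direction. Cd28, a costimulatory receptor of T cells, was at 5.66 ± 0.27 (SD, n = 5) in young and 4.27 ± 0.59 (SD, n = 5) in aged hearts, with 4 of 5 aged arrays well above background. Tek, the angiopoietin receptor of endothelial cells, was well above background on all 5 young arrays and on 0 of 5 aged arrays. Its measured log2 means were 4.54 in young and 2.81 in aged hearts. With aged values under the detection limit of their array raised to it, young hearts were 2.23-fold higher. That limit is the lowest value marked well above background, and an unmarked value can lie above it, so 2.23 is not a bound. Neither Cd28 nor Tek was called with normexp correction or with the GAPDH ratio as a covariate. Neither was tested where detection on all arrays was required. No B cell, mast cell, red cell or platelet marker of the lists had a named probe, so blood left in the hearts was not tested with them. The embryonic globin gene Hba-x, which is on none of the lists, was named among the higher genes, with a log2 difference of 2.63.

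The RefSeq promoter table (GRCm38.p6) held a window of 300 bases, from 250 before to 50 after the start, for 5 of the genes and none for Wfdc21. The windows were searched on both strands for short motifs of factors active in myeloid cells. The PU.1 motif GAGGAA was found in Cxcr2, S100a8 and Vsig4 and in 28.3% of all 32851 windows. The C/EBP motif TTGCNNAA was found only in Il3ra, against 10.8% of all windows, at bases 134 to 127 before the start and inside the stretch that the probe covers. The RUNX motif TGTGGT was found in none of the 5, against 16.8%, and TATAAA was found in S100a8 and Chil3, against 13.6%. In S100a8 the PU.1 and TATA matches lie next to each other, 36 to 25 bases before the start. In Chil3 the TATAAA match spans the start itself. For the 4 genes with a window other than Il3ra, the stretch around 1 match or pair of matches is shown in the direction of the gene, with the matches in capitals (TTCCTC is the PU.1 motif on the opposite strand). They lie at chr1:74153901-74153930, chr3:90669026-90669055, chr3:106167550-106167579 and chrX:96293474-96293503.
Cxcr2 promoter: acagcctagccaTTCCTCtataggacacct
S100a8 promoter: ggccaagctTTCCTCTATAAAagcagctga
Chil3 promoter: ggtctcggagtaTATAAAaagccagcagaa
Vsig4 promoter: ggggaagtgtgtGAGGAAactaggattctg
The matches are a description of letters in these windows and were not tested as binding sites.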

How the data were processed

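Total RNA of 10 hearts was labelled as Cy3 cRNA after removal of ribosomal RNA and hybridized to 10 one-colour Arraystar mouse lncRNA arrays. The authors deposited, per array, the background-subtracted intensity of Agilent Feature Extraction with flags (version 11.0.1.1 in the file headers, 9.1 in the submitters' processing notes), and a table of quantile-normalized log2 values, which the authors made. The labeling kit differs between the labels and the methods. Spots marked as outliers were set to missing, the intensity was quantile-normalized over the probes of the authors' table, set to a floor of 5 and expressed as log2 values. The 16720 mRNA probes that the software marked well above background on 5 or more arrays were fitted with limma 3.58.1 in R 4.3.3, with age group as the term and Benjamini-Hochberg adjustment within mRNA probes. On simulated data, with independent normal noise at each probe's own spread and log2 changes of 2 up or down, the fit called 190 of 200 changed probes and 3 others. The simulation held no scan, floor or control-ratio effect, so these counts are not error rates of the real arrays. Array measures were compared by an exact permutation test over all 252 ways to assign the arrays (scipy 1.17.1, numpy 2.4.6, pandas 2.3.3, matplotlib 3.10.9, Python 3.11.15).

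Probes were named from the study's supplementary tables. Their columns of fold changes and p-values served only to match an entry to its probe (tolerance 0.002), and their values are not reported. The members and lists were chosen with earlier results of these data known. Named genes were the 6 members, the named genes of the lists, and per member the 3 named probes with the highest Pearson correlation over the 10 arrays, with and without the group means. Trim14, next to Vsig4 in the ranking, is named in addition, chosen after its value was seen. Arrays give no count depth, and their number limits the precision. Alternatives covered scaling, background correction, floor, detection, outlier spots, the test, the fold limit, the scan as a block or with both ages alone, the replicate number, the GAPDH ratio and each array left out. Coordinates are those of the study's tables and of RefSeq on GRCm38.p6.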

Additional observations from a re-analysis of the deposited data

How the results depend on the processing

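The differences of the 6 genes kept their sign in all 126 recomputations and moved by more than the spread between replicates in 9. Normexp correction gave 1.38 for Il3ra, 1.09 for Chil3, 1.24 for Wfdc21, 0.69 for S100a8 and 0.90 for Vsig4. Undetected values raised to the detection limit, chosen after seeing the data, gave 3.09 for Wfdc21 and 2.03 for S100a8, by construction toward smaller differences. The GAPDH covariate gave 2.11 for S100a8 and 3.38 for Vsig4 (the cause was not tested). With each array left out, differences ranged from 3.14 to 3.70 for Il3ra, 3.20 to 3.66 for Chil3, 3.41 to 3.69 for Wfdc21, 2.40 to 2.99 for Cxcr2, 2.54 to 3.00 for S100a8 and 1.99 to 2.52 for Vsig4.

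Probes called numbered 669 higher and 1613 lower. They numbered 247 and 545 with normexp, 2124 and 3695 with no fold limit, 993 lower in the scan with both ages and 532 lower with the GAPDH covariate (the cause was not tested). Of the 2 listed genes called lower, Tek and Cd28, 0 remained with normexp or with the GAPDH covariate. With detection on all arrays 0 remained, since the filter removed both before the fit. In the scan with both ages 1 remained, since Tek, detected on young arrays only, did not pass the detection filter there and was not tested. With each array left out 1 to 2 remained. Tek was detected on the 5 young arrays only, and without any of them it no longer passed the detection filter. The control ratios stayed past the threshold with each array left out, from 0.50 to 0.68 for GAPDH and 0.78 to 0.93 for PGK1.

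With the replicate number as a replicate block, the count was 669 higher and 1612 lower, and the 6 differences were the same. Correlations of deviations between samples of the same number were 0.23, -0.09, 0.24, 0.0050 and -0.37, so the numbers were not taken to pair the hearts. Values near the background limit S100a8, Chil3, Wfdc21 and Il3ra in young hearts.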
